A study of Bos taurus with 6 samples.

Results

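The genes described here encode the enzymes of glycolysis, of the pentose phosphate pathway and of the glycogen and glycerol phosphate branches that join them in the bovine (Bos taurus) blastocyst. They were taken by symbol from a list of 38 genes. The count table held 36 of them among its 12826 genes, and all 36 passed the filter on low counts that left 12732 genes for testing. TPI1 and ENO2 of the list are not analysed here. The libraries were made from pools of blastocysts at day 7, produced in vitro from slaughterhouse material. The BHB group (3 libraries) came from embryos treated with the ketone body beta-hydroxybutyrate, and the control group (3 libraries) from embryos without it. The sources used here state no dose, no exposure time and no pool size.

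Glycolysis splits glucose into pyruvate in the cytosol. Hexokinase traps glucose as glucose-6-phosphate, phosphofructokinase is the main point of control, and the later steps return ATP and NADH. The pentose phosphate pathway draws on glucose-6-phosphate to make NADPH and the ribose of nucleotides, and glycogen enzymes store and release glucose units. Mammalian embryos rely mostly on pyruvate and lactate at cleavage stages and take up more glucose as they compact and form a blastocyst, where glucose feeds glycolysis and the pentose phosphate pathway. Beta-hydroxybutyrate is a fuel that enters metabolism downstream of glycolysis, as acetyl-CoA.

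Totals ran from 6440732 to 7348949 counts in BHB libraries and from 7925889 to 8176648 counts in control libraries, and the 36 genes together took 0.760% ± 0.0341 and 0.790% ± 0.0475 of them (SD, n = 3 each). The unit of level is CPM, a count scaled to a common library total after edgeR's TMM correction. CPM is not corrected for transcript length, so it compares libraries for 1 gene and not genes with each other. Fold changes are log2 of BHB over control with their standard error (SE). Replicate numbers follow the order of deposit. A refit of the authors' deposited table showed that their model paired BHB 1 with control 1, BHB 2 with control 2 and BHB 3 with control 3, so differences within these pairs are also given. The labels do not say whether the pools were separate batches of embryos, so a p-value here reflects the spread over these 6 libraries, which may be technical. The summed level of 6 trophectoderm markers was 8295 to 13440 CPM in BHB and 10510 to 17120 CPM in control libraries, a sum that the keratin genes KRT8 and KRT18 dominate. POU5F1, NANOG and KLF17 of the inner cell mass together had 344 to 381 CPM in BHB and 368 to 397 CPM in control libraries, a sum that POU5F1 dominates. NANOG alone was at 30.7, 33.4 and 51.2 CPM in BHB and 72.4, 60.7 and 73.4 CPM in control libraries, below all controls (adjusted p = 0.00892 by DESeq2 with pair as a block in the model (the replicate block), 0.183 by edgeR with it and 0.999 by edgeR without it). KLF17 alone was at 34.2, 24.2 and 32.97 CPM in BHB and 15.4, 17.9 and 22.3 CPM in control libraries, above all controls (adjusted p = 0.38, 0.371 and 0.999 in the same tests). The part of these shifts in the values below was not tested. All BHB values were below all control values in 3.78% of all genes and above them in 4.06%. Of 7 cumulus or granulosa cell markers, FSHR and CYP19A1 were in the table and together had 19.99 to 24.5 CPM in BHB and 19.8 to 26.8 CPM in control libraries. The other 5 and the leukocyte and red cell markers are not analysed here. The summed markers of primitive endoderm (3 in the table, 159 to 215 CPM in BHB and 139 to 214 CPM in control libraries) overlapped between groups. So did those of oocytes (ZP3, 0.943 to 2.77 CPM in BHB and 0.401 to 2.65 CPM in control libraries) and of sperm (PRM1 and TNP1, 4.29 to 5.40 CPM in BHB and 2.12 to 6.46 CPM in control libraries). Of the primitive endoderm markers, GATA6 and PDGFRA overlapped, but GATA4 lay below all controls. It was at 1.08, 1.80 and 0.875 CPM in BHB and 2.40, 1.99 and 3.17 CPM in control libraries, on 6 to 27 counts per library (adjusted p = 0.999 by edgeR without pairing).

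No gene of these pathways passed the test between BHB and control blastocysts. edgeR's quasi-likelihood test with Benjamini-Hochberg adjustment called 0 of the 36 genes, against 0% of all 12732 tested genes, with an adjusted p of 0.999 for every member. DESeq2 (0.0471% of genes called) and limma-voom (0%) likewise called 0 of the 36. At an unadjusted p under 0.05, PFKP was on the higher side (1.46% of all genes were) and the glycogen branching enzyme gene GBE1 on the lower side (1.26% of all genes). The list leaned to lower values with BHB. Its median log2 fold change was -0.13 against -0.005 for all genes, and 25 of 36 members (69.4%) were below 0, against 50.9% of all genes. With libraries scaled by their total alone, 21 members were below 0, against 39.3% of all genes, with medians of -0.06 and 0.06. The lean was not the same in each pair: 22, 22 and 18 of 36 members were lower with BHB in pairs 1, 2 and 3, where 49.6%, 49.5% and 51.2% of all genes were. In bulk pools, fewer cells of a type and less RNA per cell cannot be told apart.

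**Figure D1:**
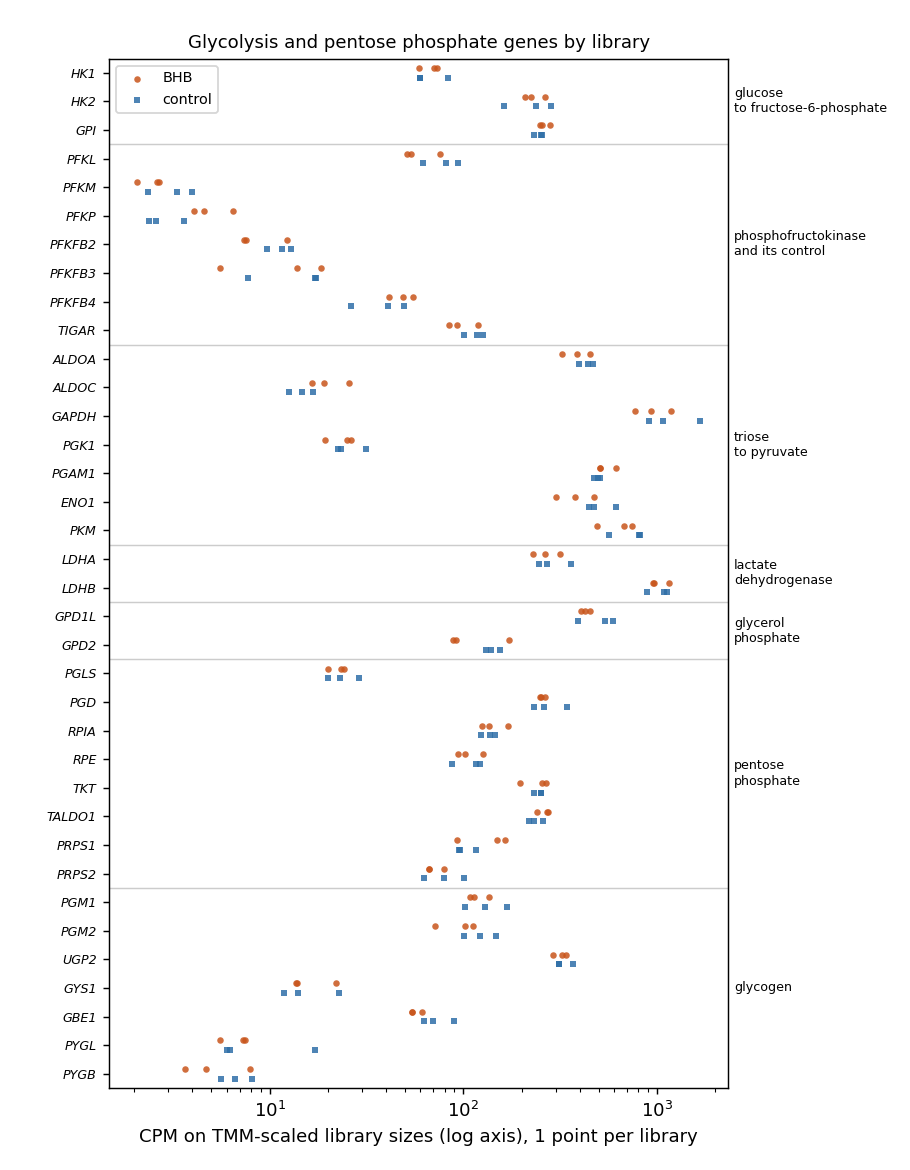
Level of each of the 36 genes in each library, as CPM on a log axis, with genes grouped by the role of their enzyme; circles are the 3 BHB libraries and squares the 3 control libraries. For PFKP and PGAM1 the BHB points lie above the control points and for GBE1 below them, and for the other 33 genes the groups overlap.

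Glucose enters the pathway through hexokinase, and the 3 listed genes of the first steps had fold changes near 0. HK2, the hexokinase that binds the outer mitochondrial membrane and is typical of growing cells, was at 208, 264 and 222 CPM in BHB libraries 1 to 3 and at 161, 282 and 238 CPM in control libraries 1 to 3. The BHB values fell within the range of the controls. HK1, the more widely expressed hexokinase, was at 73.6, 70.9 and 58.8 CPM in BHB libraries and at 83.0, 59.8 and 59.8 CPM in control libraries. GPI, which turns glucose-6-phosphate into fructose-6-phosphate, was at 249, 279 and 256 CPM in BHB libraries and at 231, 254 and 253 CPM in control libraries. It had the narrowest 95% interval of these 3 genes, from -0.18 to 0.36 around a log2 fold change of 0.09 (SE 0.12). The intervals of HK2 (-0.43 to 0.48) and HK1 (-0.39 to 0.41) leave room for changes of either sign. HKDC1, a hexokinase gene outside the list, was at 125, 59.8 and 59.1 CPM in BHB libraries and at 149, 100.1 and 63.9 CPM in control libraries. It was lower with BHB in 3 of 3 pairs (log2 fold change without pairing -0.36, SE 0.35). With the replicate block, edgeR gave -0.37 (SE 0.14, unadjusted p = 0.0259, adjusted p = 0.549). The glucose transporters that feed this step likewise overlapped: SLC2A1 had 239 ± 67.9 CPM in BHB and 233 ± 31.0 CPM in control libraries, and SLC2A3 had 2598 ± 411 CPM in BHB and 2623 ± 702 CPM in control libraries (SD, n = 3 each).

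Phosphofructokinase, which commits fructose-6-phosphate to glycolysis, is built from subunits of the liver, muscle and platelet types. These 3 genes held the largest fold change of the list, on low counts. The platelet type gene PFKP was at 4.58, 6.51 and 4.09 CPM in BHB libraries and at 3.61, 2.39 and 2.58 CPM in control libraries. Those levels rest on 34, 47 and 28 counts in BHB and 27, 18 and 22 counts in control libraries. All BHB values were above all control values, as in 4.06% of all genes, with a log2 fold change of 0.82 (SE 0.36, 95% interval 0.00 to 1.64, unadjusted p = 0.0493 by edgeR, adjusted p = 0.999). The liver type gene PFKL was at 76.1, 54.0 and 51.2 CPM in BHB libraries and at 81.6, 94.4 and 62.2 CPM in control libraries. BHB 1 lay inside the control range and the other two BHB libraries below it, with a log2 fold change of -0.39 (SE 0.21). The muscle type gene PFKM had few counts, at 2.69, 2.08 and 2.63 CPM in BHB and 3.34, 3.98 and 2.35 CPM in control libraries (log2 fold change -0.38, SE 0.38).

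The ratio of PFKP to PFKL within a library, which does not depend on scaling, separated the groups, as PFKP alone did. This ratio rests on the same low counts of PFKP. The log2 ratio of PFKP to PFKL was -4.06, -3.05 and -3.65 in BHB libraries and -4.50, -5.31 and -4.59 in control libraries, a difference of 1.21 between means. Each pair showed it, by 0.45, 2.25 and 0.94. The exact two-sided permutation test over the 6 libraries gave p = 0.1, the smallest it can give with 3 against 3, and 0.55 adjusted over the 11 isoenzyme ratios tested. PFKM to PFKL differed by 0.03.

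**Figure D2:**
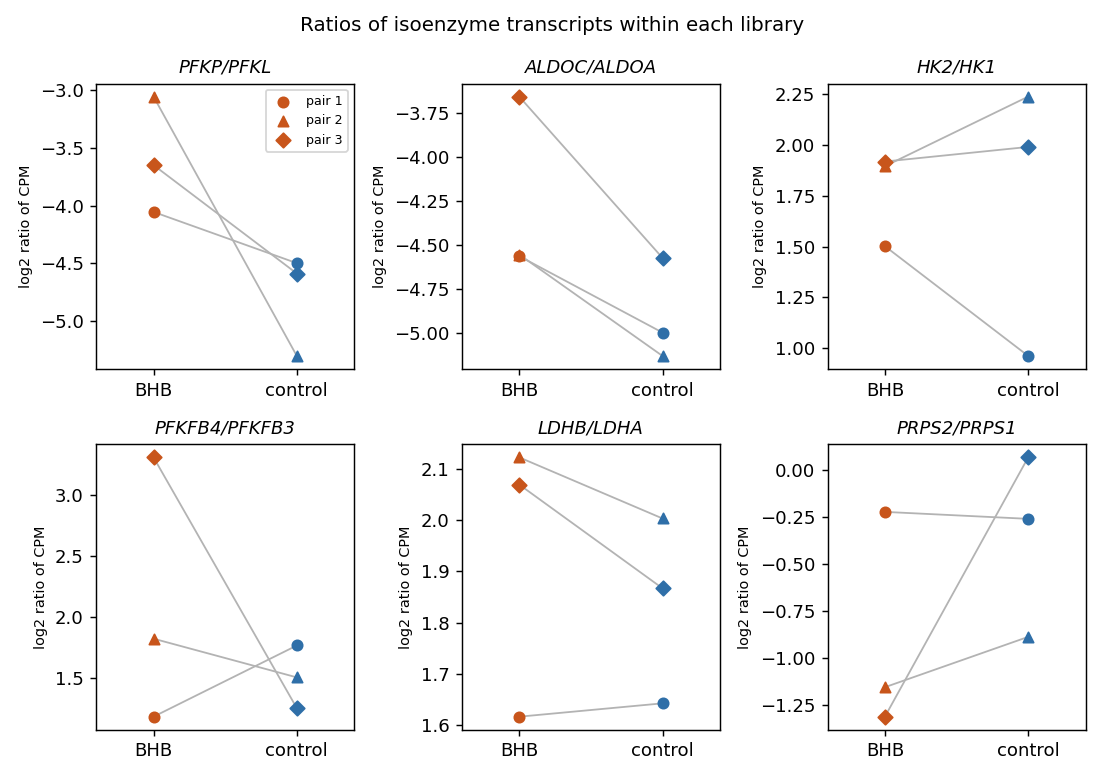
Log2 ratio of the CPM of 2 isoenzyme genes within each library, for 6 of the 11 ratios, with BHB on the left and control on the right; marker shape and the grey lines show the pairs, and each panel has its own axis. For PFKP to PFKL and ALDOC to ALDOA every BHB point lies above every control point, and the other panels overlap.

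Fructose-2,6-bisphosphate is the strongest activator of phosphofructokinase, and the PFKFB enzymes make and break it. PFKFB3, whose enzyme has high kinase activity, was at 18.3, 13.8 and 5.54 CPM in BHB libraries and at 7.75, 17.4 and 17.1 CPM in control libraries. Both groups held a low library, BHB 3 and control 1, so the pairs disagreed, with log2 differences of 1.21, -0.32 and -1.58. PFKFB4 was at 41.5, 48.9 and 55.0 CPM in BHB libraries and at 26.3, 49.2 and 40.7 CPM in control libraries, with a log2 fold change of 0.32 (SE 0.23). Control 1 was the low library for PFKFB4 too. PFKFB2 was at 12.3, 7.34 and 7.59 CPM in BHB libraries and at 9.75, 12.9 and 11.6 CPM in control libraries (log2 fold change -0.33, SE 0.28). TIGAR, a target of p53 in human cells whose product lowers fructose-2,6-bisphosphate, was at 84.2, 119 and 92.9 CPM in BHB libraries and at 127, 117 and 101 CPM in control libraries (log2 fold change -0.22, SE 0.17). Of the 7 genes of phosphofructokinase and its control, 5 were below 0 and the median was -0.22.

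Aldolase splits fructose-1,6-bisphosphate into trioses. The genes from aldolase to pyruvate kinase had 5 of 7 tested members below 0 with a median of -0.17, and ALDOC and PGAM1 above 0. ALDOA was at 449, 387 and 323 CPM in BHB libraries and at 469, 441 and 397 CPM in control libraries (log2 fold change -0.17, SE 0.15). ALDOC, best known from brain, was at 18.99, 16.5 and 25.7 CPM in BHB libraries and at 14.7, 12.6 and 16.7 CPM in control libraries. BHB 2 lay just under the highest control, and the log2 fold change was 0.47 (SE 0.23). The log2 ratio of ALDOC to ALDOA was -4.56, -4.55 and -3.65 in BHB libraries and -4.997, -5.13 and -4.57 in control libraries. These groups did not overlap, but the gap between BHB 1 or BHB 2 and control 3 was small beside the spread within groups (SD 0.52 in BHB and 0.29 in control libraries; exact permutation p = 0.1, adjusted p = 0.55, n = 3 each).

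GAPDH, which makes the NADH of glycolysis, was at 1176, 932 and 768 CPM in BHB libraries and at 1664, 1072 and 904 CPM in control libraries. Control 1 stood apart, and the log2 fold change of -0.34 (SE 0.24) was -0.04 without it, a value that keeps BHB 1, the highest BHB library. Without both libraries of pair 1, edgeR with the replicate block gave -0.22 (SE 0.084). ENO1, the enolase of most tissues, was at 378, 471 and 299 CPM in BHB libraries and at 472, 614 and 443 CPM in control libraries. BHB 2 reached the control range and the other two BHB libraries lay below it (log2 fold change -0.41, SE 0.19, 95% interval -0.85 to 0.02). PKM, the pyruvate kinase gene that yields pyruvate and ATP, was at 678, 740.4 and 491 CPM in BHB libraries and at 817, 808 and 566 CPM in control libraries (log2 fold change -0.20, SE 0.20). Library 3 was the low one in both groups for PKM. PGAM1, the phosphoglycerate mutase gene, lay on the other side, at 507, 615 and 509 CPM in BHB libraries and at 495, 506 and 473 CPM in control libraries. The BHB values lay above all control values, as in 4.06% of all genes, but BHB 1 and the highest control differed by under 1 CPM (log2 fold change 0.15, SE 0.13). PGK1, whose enzyme makes the first ATP of the later steps, was at 23.6 ± 3.71 CPM in BHB and 25.8 ± 4.82 CPM in control libraries (SD, n = 3 each). Mammalian genomes hold processed pseudogenes of genes such as GAPDH, LDHA and PGAM1, and the sources used here do not state how multi-mapping reads were counted, so these levels are uncertain.

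Lactate dehydrogenase links pyruvate to lactate, with LDHA the subunit typical of muscle and LDHB that of heart. LDHA was at 314, 264 and 228 CPM in BHB libraries and at 361, 271 and 245 CPM in control libraries (log2 fold change -0.12, SE 0.18). LDHB was at 963, 1148 and 958 CPM in BHB libraries and at 1128, 1086 and 892 CPM in control libraries (log2 fold change -0.02, SE 0.14). Neither gene separated the groups, and their log2 ratio differed by 0.10 between means of 1.94 in BHB and 1.84 in control libraries. The glycerol phosphate shuttle carries cytosolic NADH to mitochondria. Its mitochondrial enzyme gene GPD2 was at 172, 88.1 and 91.5 CPM in BHB libraries and at 155, 131 and 139 CPM in control libraries. BHB 1 was the highest of all 6 libraries and the other two BHB libraries were the lowest, so pair 1 differed by 0.15 and pairs 2 and 3 by -0.57 and -0.61. GPD1L, related to the cytosolic enzyme, was at 450, 426 and 403 CPM in BHB libraries and at 593, 537 and 392 CPM in control libraries (log2 fold change -0.25, SE 0.16).

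The pentose phosphate genes had a median log2 fold change of -0.02, with 5 of 8 members below 0. PGD, the NADPH-forming 6-phosphogluconate dehydrogenase, was at 251, 248 and 265 CPM in BHB libraries and at 232, 344 and 261 CPM in control libraries. PGLS, the 6-phosphogluconolactonase gene, had 22.5 ± 2.17 CPM in BHB and 24.05 ± 4.66 CPM in control libraries (SD, n = 3 each). The groups overlapped for both genes. In the part of the pathway that shuffles carbon between sugars, TKT (transketolase) was at 197, 266 and 255 CPM in BHB libraries and at 233, 253 and 252 CPM in control libraries. TALDO1 (transaldolase) was at 269, 239 and 274 CPM in BHB libraries and at 256, 218 and 232 CPM in control libraries, higher with BHB in 3 of 3 pairs (log2 fold change 0.15, SE 0.13). RPIA, the ribose-5-phosphate isomerase gene, had 143 ± 23.3 CPM in BHB and 135 ± 11.3 CPM in control libraries, and RPE, the epimerase gene, had 108 ± 17.1 CPM in BHB and 108 ± 18.6 CPM in control libraries (SD, n = 3 each).

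PRPS1 and PRPS2 encode the synthetases that turn ribose-5-phosphate into PRPP, the start of nucleotide synthesis. PRPS1 was at 93.1, 149 and 165 CPM in BHB libraries and at 94.7, 116 and 95.8 CPM in control libraries. BHB 2 and BHB 3 were above all controls and BHB 1 below them, with a log2 fold change of 0.41 (SE 0.21). PRPS2 was at 79.8, 66.8 and 66.2 CPM in BHB libraries and at 79.1, 62.6 and 100.4 CPM in control libraries (log2 fold change -0.19, SE 0.19).

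Genes listed under glycogen metabolism had 6 of 7 members below 0, with a median of -0.32, and 5 of 6 with a median of -0.24 without PGM2 (left out after the values were seen), whose enzyme acts mainly on phosphopentoses. GBE1, which adds the branches of glycogen, was at 54.6, 61.1 and 54.4 CPM in BHB libraries and at 69.7, 89.6 and 63.1 CPM in control libraries. All BHB values lay below all control values, as in 3.78% of all genes (log2 fold change -0.39, SE 0.17, unadjusted p = 0.0452 and adjusted p = 0.999 by edgeR). PGM2 was at 112, 102 and 71.8 CPM in BHB libraries and at 101, 148 and 121 CPM in control libraries (log2 fold change -0.37, SE 0.20). PGM1, which joins glucose-6-phosphate to glucose-1-phosphate, was at 136, 108 and 114 CPM in BHB libraries and at 168, 129 and 103 CPM in control libraries. UGP2, which makes the UDP-glucose used for glycogen, was at 318 ± 24.02 CPM in BHB and 332 ± 33.0 CPM in control libraries (SD, n = 3 each). GYS1, the glycogen synthase gene, was at 22.1, 13.8 and 13.7 CPM in BHB libraries and at 22.7, 14.1 and 11.9 CPM in control libraries, so library 1 was the high one in both groups. The phosphorylases that release glucose units had low counts. PYGL was at 5.52, 7.48 and 7.29 CPM in BHB libraries and at 6.01, 6.23 and 17.3 CPM in control libraries, and its log2 fold change of -0.54 (SE 0.43) became 0.14 without control 3, the 1 high library. PYGB was at 7.95, 4.71 and 3.65 CPM in BHB libraries and at 8.15, 6.63 and 5.64 CPM in control libraries.

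**Figure D3:**
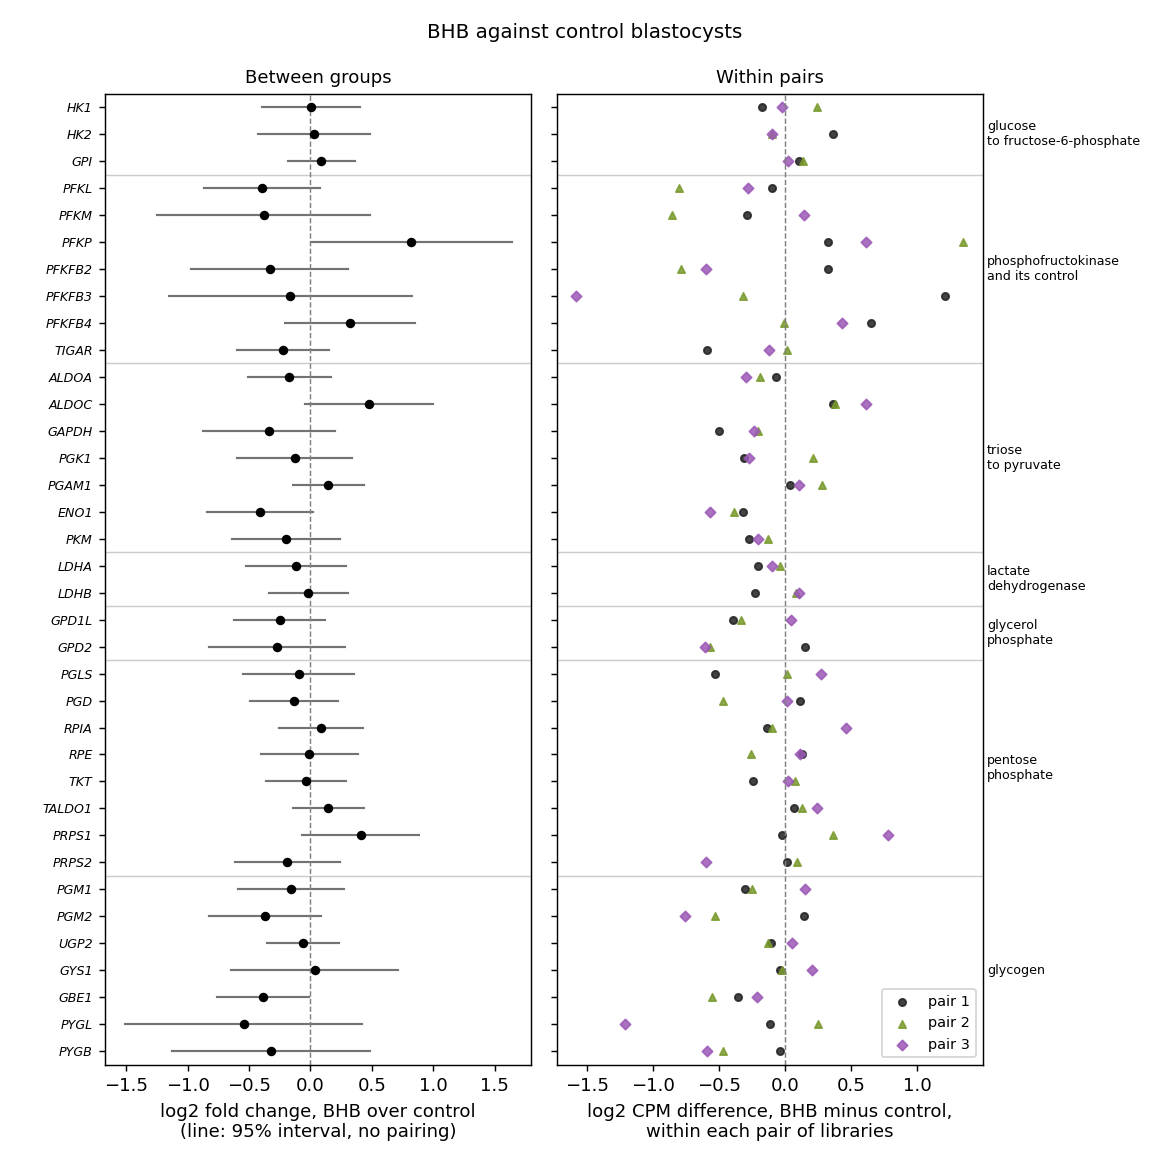
Left, log2 fold change of BHB over control for each gene with its 95% interval from edgeR's test without pairing; right, the log2 CPM difference of BHB minus control in each of the 3 pairs of libraries. On the left the intervals of PFKP (0.00 to 1.64) and GBE1 (-0.76 to -0.01) just clear 0 and the other 34 hold it; on the right the 3 points of PFKP and ALDOC lie above 0 and those of ENO1, GAPDH and GBE1 below it.

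Comparison within pairs lowered the median SE of the members to 0.13, against 0.19 without pairing, and brought no member past the threshold. The edgeR test with the replicate block called 0% of all genes and 0 of the 36, and DESeq2 with the block called 0.275% of all genes and 0 of the 36. By edgeR with the block, 25 members were again below 0, against 50.3% of all genes. Unadjusted p-values under 0.05 were found for 5 members on the lower side (4.21% of all genes) and 3 on the higher side (3.99% of all genes). The 5 were ENO1, GAPDH, GBE1, PFKL and PGM2, and the 3 were ALDOC, PRPS1 and PFKP. By DESeq2 with the block, the unadjusted p of the 5 ran from 0.000387 to 0.0352. That of the 3 was 0.0938 for ALDOC, 0.0328 for PRPS1 and 0.142 for PFKP. ENO1 had the smallest p, with a log2 fold change of -0.42 (SE 0.10) and differences of -0.32, -0.38 and -0.57 in the 3 pairs (adjusted p = 0.289 by edgeR and 0.0914 by DESeq2). GAPDH followed with -0.31 (SE 0.10) and differences of -0.50, -0.20 and -0.24 (edgeR adjusted p = 0.45). In 3 of 3 pairs, 8 members were lower with BHB (PFKL, ALDOA, GAPDH, ENO1, PKM, LDHA, GBE1 and PYGB), where 15.7% of all genes were, and 5 were higher (GPI, PFKP, ALDOC, PGAM1 and TALDO1), where 14.5% of all genes were. As shares of the 36 these are 22.2% and 13.9%. Of the 7 members tested from aldolase to pyruvate kinase, 4 were in the first group and 2 in the second, so both signs ran through adjacent steps of the pathway.

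GAPDH and PKM differed between the pairs of libraries. With treatment in the model, edgeR's test of the pair term called both (adjusted p = 0.0169 and 0.0372), 2 of 36 members, against 4.12% of all genes. GAPDH averaged 1420.0 CPM in pair 1, 1002 CPM in pair 2 and 836 CPM in pair 3, and PKM averaged 748, 774 and 528 CPM. GAPDH was thus highest in pair 1, and PKM lowest in pair 3. At an unadjusted p under 0.05 there were 11 members, against 20.6% of all genes, and they did not share a direction. LDHA, PGM1, GPD2 and GYS1 were higher in both libraries of pair 1 than in the other 4, while HK2 was lower in both. Over the 36 genes, pair took 46.5% of the variance of log2 CPM, treatment 22.9% and the rest 30.6%, and over all genes 57.5%, 16.6% and 25.9%. These are shares of sums of squares, not corrected for degrees of freedom (2 for pair, 1 for treatment and 2 for the rest). Each part therefore takes a share without any effect, and pair a larger one than treatment. The authors' deposited table, whose p-values test pair and treatment together as the refit showed, has 5.04% of its genes under an adjusted p of 0.05, and GAPDH (5.15e-06), ENO1 (0.00029) and PKM (0.0027) are among them. Those p-values are not tests of BHB alone. Of the 6 trophectoderm markers, the keratin genes KRT8 and KRT18 were lower with BHB in 3 of 3 pairs, CDX2, TFAP2C and TEAD4 were higher in 3 of 3, and GATA3 was mixed. By edgeR with the replicate block the log2 fold changes were -0.39 (SE 0.077) for KRT8 and -0.38 (SE 0.084) for KRT18, against 0.29 (SE 0.28) for CDX2, 0.40 (SE 0.12) for TFAP2C, 0.22 (SE 0.12) for TEAD4 and -0.0077 (SE 0.14) for GATA3, with adjusted p-values of 0.209 or more. KRT8 was at 9804, 8217 and 5706 CPM in BHB libraries 1 to 3 and at 12283, 11329 and 7369 CPM in control libraries 1 to 3. KRT8, KRT18, GAPDH, ENO1 and PKM were all lowest in library 3 of both groups. KRT8, KRT18 and GAPDH were highest in library 1 of both groups and ENO1 in library 2 of both. PKM was highest in library 2 of BHB and in library 1 of the controls. The part of these markers in the values of GAPDH, ENO1 and PKM was not tested.

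**Figure D4:**
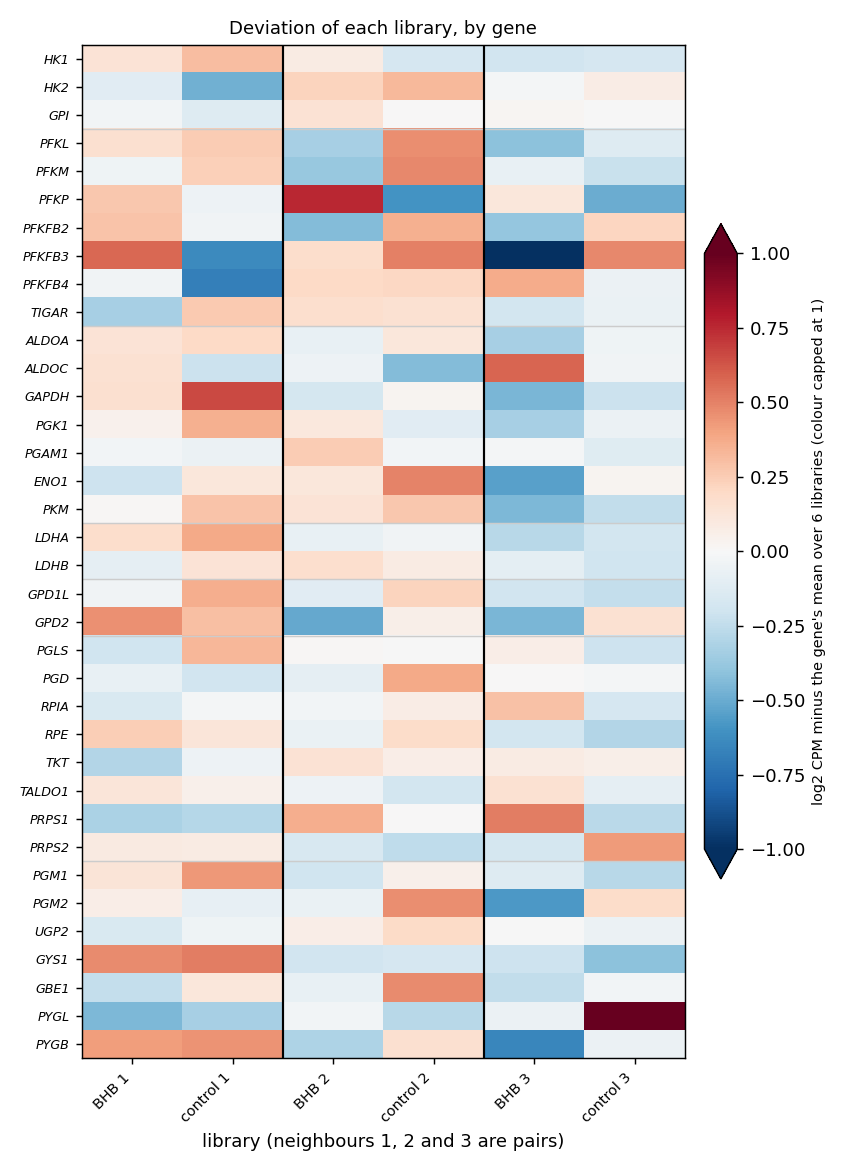
Log2 CPM of each gene in each library minus the gene's mean over the 6 libraries, with the libraries of a pair side by side and the colour capped at 1. GAPDH is above its mean in both libraries of pair 1, PKM is below its mean in both libraries of pair 3, and PFKFB3 has opposite colours within pairs 1 and 3.

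Other genes of sugar metabolism and the factors that control glycolysis were read from the same fit. Of 62 other genes of sugar metabolism, 50 were tested, 26 of them below 0, with a median of -0.02 and 0 called by edgeR, DESeq2 or limma-voom. At an unadjusted p under 0.05 were TKTL1, a transketolase-like gene (log2 fold change 0.84, SE 0.34), PHKA1, a subunit of the kinase that activates glycogen phosphorylase (0.45, SE 0.19), and PDK3, which inhibits pyruvate dehydrogenase (0.39, SE 0.17), all on the higher side. These were 3 of the 50 higher and 0 lower, where 1.46% of all genes were higher and 1.26% lower. TKTL1 was at 18.6, 15.1 and 9.05 CPM in BHB libraries and at 8.15, 5.30 and 10.3 CPM in control libraries. BHB 3 lay inside the control range, and pair 3 had the other sign (-0.19). PHKA1 was at 48.0, 39.3 and 47.7 CPM in BHB libraries and at 39.9, 28.4 and 30.3 CPM in control libraries, and BHB 2 lay just inside the control range. Of 33 regulators of glycolysis and of the hypoxia response, 32 were tested, 15 of them below 0, with a median of 0.02, 0 called by those tests and 0 at an unadjusted p under 0.05 in edgeR's without pairing. With the replicate block, edgeR put 4 of the 50 sugar genes higher and 3 lower at an unadjusted p under 0.05, against 3.99% and 4.21% of all genes. Of the 32 regulators it put 1 lower, the hypoxia-inducible factor gene EPAS1 (log2 fold change -0.53, SE 0.23, unadjusted p = 0.0409, adjusted p = 0.59). EPAS1 was at 21.8, 17.4 and 8.46 CPM in BHB libraries and at 26.2, 20.02 and 19.6 CPM in control libraries, lower with BHB in 3 of 3 pairs. HIF1A, the factor that raises glycolytic genes when oxygen is low, was at 1.08, 1.25 and 1.75 CPM in BHB libraries and at 1.87, 2.25 and 2.58 CPM in control libraries. The BHB values lay below all control values, as in 3.78% of all genes. They rest on 8 to 22 counts per library, too few for a narrow estimate (log2 fold change -0.72, SE 0.44). NDRG1, a gene induced by hypoxia, was at 12.7, 11.2 and 13.7 CPM in BHB libraries and at 9.88, 9.55 and 7.87 CPM in control libraries (log2 fold change 0.46, SE 0.23). Its BHB values lay above all control values, as in 4.06% of all genes. PRKAA1, a catalytic subunit of the energy sensor AMPK, was at 35.3, 35.7 and 37.1 CPM in BHB libraries and at 41.9, 42.6 and 40.6 CPM in control libraries (log2 fold change -0.21, SE 0.15). Like HIF1A, it lay below all control values with BHB. EGLN2, an oxygen-sensing prolyl hydroxylase gene, had a log2 fold change of 0.34 (SE 0.21).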

How the data were processed

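Poly(A) RNA from pools of day 7 bovine blastocysts was sequenced in 1 lane, per the labels' protocols. The authors deposited a table of raw counts per gene, made with STAR and featureCounts per the submitters' processing notes, and the results of a DESeq2 comparison. The sources used here do not give the build, annotation, strand setting or versions. The authors' deposited table holds a mean normalized count (signal), a log2 fold change (control over BHB), its error, a test statistic (score) and p-values. Its p-values were matched within 1e-06 in 99.98% of genes by a likelihood ratio test of pair and treatment against neither, and in at most 0.398% of genes under other pairings. Deviations within pairs correlated at 0.462, 0.322 and 0.329 over genes. The pairing is not stated in the labels.

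Counts were analysed with R 4.3.3, edgeR 4.0.16 (filterByExpr, TMM, quasi-likelihood F test, adjusted p over all tested genes, threshold 0.05), DESeq2 1.42.0 and limma 3.58.1, after tests on simulated data. Totals above give the depth. The SE is the log2 fold change divided by the root of F. Log2 CPM used a prior count of 2. Every member is named, and 2 other list genes that the naming rule covers are counted but not reported here. Values in each library are given for members at an unadjusted p under 0.05 or without overlap and for most others, and other list genes by the smallest p, with SLC2A1, SLC2A3, HIF1A, EPAS1 and HKDC1. The members and lists were chosen with earlier results of these data known. Ratios of enzyme families were compared by exact permutation; ENO2/ENO1 was left out. Alternatives were other scalings, filters and tools, the replicate block, and leaving out each library or pair. No sequences are shown.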

Additional observations from a re-analysis of the deposited data

How the results depend on the processing

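No member passed an adjusted p of 0.05 under any of the alternatives run. Over all genes the count called was 0 in edgeR's test without pairing, 6 by DESeq2's Wald test, 35 by DESeq2 with the replicate block, 0 by edgeR with the block, 0 to 1 without 1 library and 4, 16 and 4 without pair 1, 2 or 3. The replicate block changed no member's call. The members' median of -0.13 was -0.062 with library size alone, -0.20 to -0.068 without 1 library (lowest without BHB 1, highest without BHB 3) and -0.072 without pair 1. The count of members below 0, added after seeing the data, ran from 20 (without control 1) to 26 (without BHB 2). Members called between pairs were 2, 3 by DESeq2's likelihood ratio test and 0 with pair alone in the model; the cause was not tested. Isoenzyme ratios without overlap numbered 2 with all libraries and 2 to 6 without 1 library (6 without BHB 1, 4 without control 1), where smaller groups overlap less often by construction.

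The direction held in 20 of 36 members under all alternatives, PFKP (0.50 to 1.05), ENO1 (-0.59 to -0.26) and GBE1 (-0.49 to -0.23) among them. With library size alone, the log2 fold change was 0.054 in LDHB, 0.064 in RPE, 0.029 in TKT and 0.0075 in UGP2, each below 0 with TMM. Without 1 library it ran from -0.075 to 0.18 in HK1, -0.16 to 0.21 in HK2, -0.54 to 0.19 in PFKFB3, -0.21 to 0.037 in PGK1, -0.25 to 0.063 in LDHA, -0.11 to 0.052 in LDHB, -0.21 to 0.069 in PGLS, -0.25 to 0.046 in PGD, -0.052 to 0.18 in RPIA, -0.14 to 0.0855 in RPE, -0.12 to 0.0865 in TKT, -0.34 to 0.0017 in PRPS2, -0.32 to 0.047 in PGM1, -0.11 to 0.025 in UGP2, -0.23 to 0.36 in GYS1 and -0.80 to 0.14 in PYGL. With the block and without pair 1 it turned to -0.097 in HK2, 0.092 in LDHB, 0.145 in PGLS and 0.048 in TKT, without pair 2 to -0.098 in HK1, 0.066 in PGD and 0.122 in RPE, and without pair 3 to -0.020 in GYS1, 0.438 in PFKFB3, 0.0625 in PRPS2, 0.085 in PYGL and -0.106 in RPIA. Fits without 1 library keep its partner and so mix pair with treatment. Depth limits PFKP, PFKM, PYGL and PYGB most.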

Other observations

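GAPDH, a gene often taken as a constant standard in RT-qPCR, was among the more variable of the abundant genes over these 6 libraries. Its highest level was 2.17 times its lowest, and 94.3% of the 2062 genes with a mean of at least 100 CPM had a smaller ratio (their median was 1.37). The highest was control 1 at 1664 CPM, and the other libraries lay between 768 and 1176 CPM, so this ratio depends strongly on control 1. PGM2, ENO1 and GPD2 came near GAPDH with 2.06, 2.05 and 1.95, and some other members at that level were steadier. The ratio was 1.21 for GPI, 1.26 for TALDO1, 1.29 for LDHB and 1.30 for PGAM1, and the median over the 21 members at that level was 1.51. The minimum of 100 CPM and the measure were chosen after the values were seen.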
